A study of Mus musculus with 9 samples.

Results

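The genes described here carry pyruvate into the mitochondrion, turn it into acetyl-CoA and run the citrate cycle, together with the transaminases and malate dehydrogenase of the malate-aspartate shuttle. They were taken from a list of 32 symbols, and each was read at the probe set that names this gene alone and has the highest mean over all 9 arrays. In this way 31 of the 32 were measured, out of 19935 genes in the table; Mpc2 had no such probe set and was not analysed here. The study profiled adult mouse hearts of a mixed C57BL/6 background with Affymetrix arrays, 1 array per heart, using tissue from the right ventricle together with the septum between the ventricles. The wild-type group held 5 hearts with floxed Ezh2 alleles and no Cre (Ezh2f/f by the genotype field, Ez f/wt by the titles). The Ezh2-deficient group held 4 hearts with floxed alleles and the Mef2cAHF::Cre transgene (Ezh2f/f;Mef2cAHF::Cre). This Cre acts in embryonic progenitors of the anterior heart field, so that the dissected tissue also holds cells in which it was never active, and since no group carried Cre alone, effects of Cre and of Ezh2 loss cannot be told apart.

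Pyruvate enters mitochondria through the carrier formed by Mpc1 and Mpc2. The pyruvate dehydrogenase complex then makes acetyl-CoA from it; kinases of the Pdk family switch the complex off by phosphorylating its E1 alpha subunit, and the phosphatases Pdp1 and Pdp2 switch it on again. The citrate cycle oxidises the acetyl group, whether it comes from pyruvate or from fatty acids, and passes electrons to the respiratory chain. The adult heart depends on this cycle for most of its ATP and draws mainly on fatty acids.

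Of the 31 measured genes, 28 averaged lower in Ezh2-deficient hearts and 3 higher, with a median difference of -0.12 on the log2 scale, or a fold of 0.922. Over all 19935 genes 51.6% had a lower mean, and the median difference was -0.0033. None of the differences passed limma's test after Benjamini-Hochberg adjustment over all 28815 probe sets: 0 of 31 passed at an adjusted p of 0.05, where 0.0347% of all probe sets (10 of them) did. By limma's unadjusted p under 0.05, 13 of the 31 were lower (41.9%), against 5.78% of all genes, and 1 was higher (3.23%), against 5.77%. The groups did not overlap, with every Ezh2-deficient heart lower, at 5 of the 31, where 2.19% of all genes showed this, and 1 gene was higher in every Ezh2-deficient heart, where 2.1% of all genes were. The differences were small: they ran from -0.45 for Pdk4 to 0.39 for Pdk3, and the 12 citrate cycle genes all lay between -0.18 and -0.034.

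**Figure D1:**
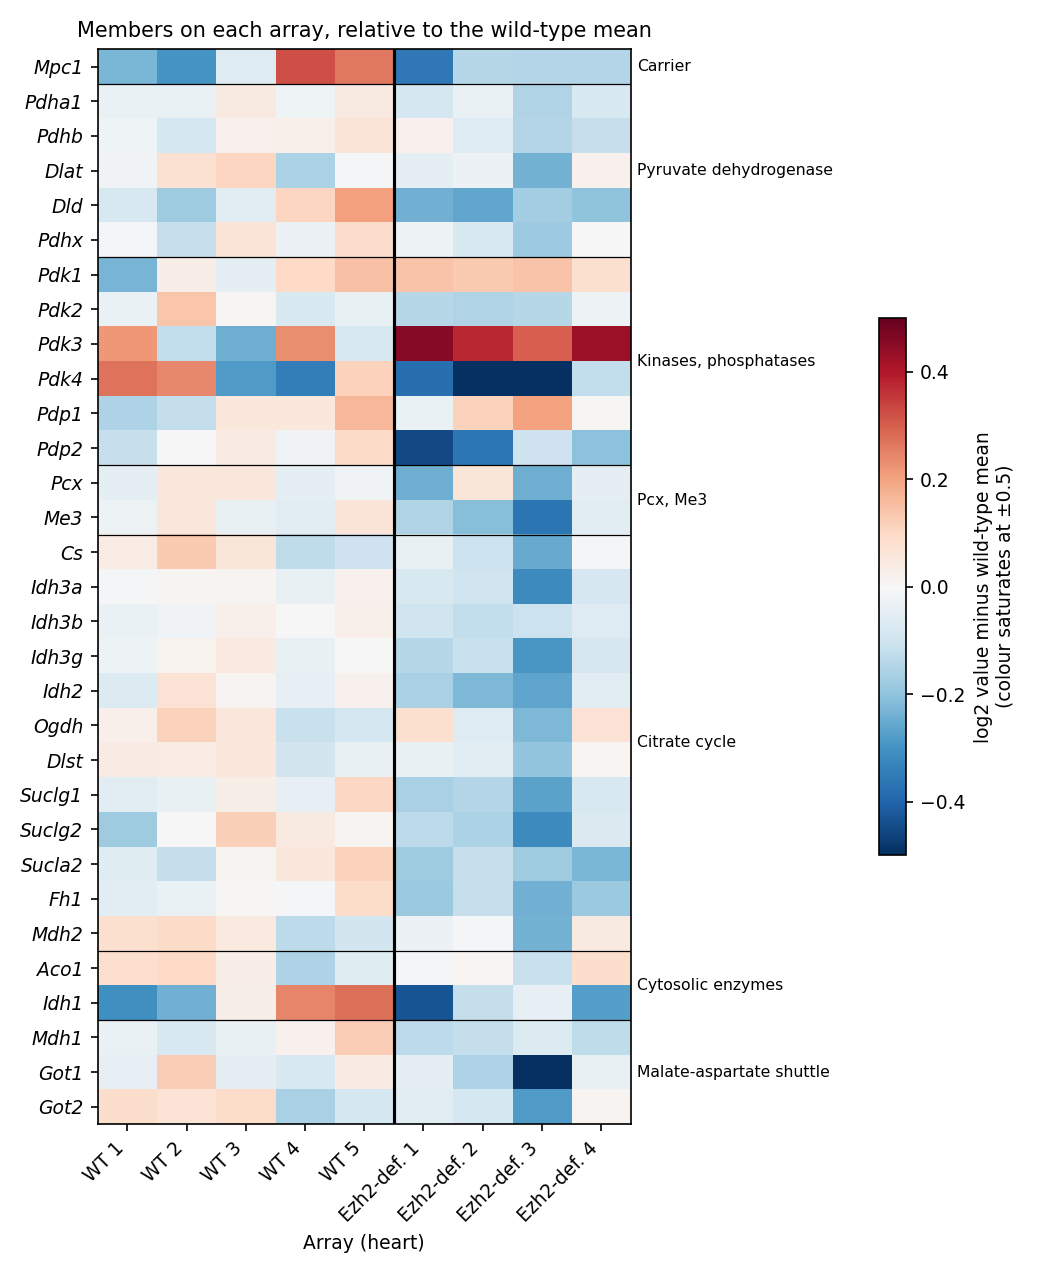
Each cell is the log2 value of 1 gene (row) on 1 array (column) minus that gene's wild-type mean, blue where lower and red where higher, with colours saturating at ±0.5; WT are the 5 wild-type hearts, Ezh2-def. the 4 Ezh2-deficient ones, and lines separate the roles. Most rows are blue in the 4 right-hand columns and most strongly in Ezh2-deficient heart 3, while Pdk3 is red in all 4 of them.

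Ezh2 is the histone methyltransferase of a Polycomb repressive complex, which in mammals is found mainly at promoters rich in CpG, so the stretches before the start sites of 3 genes are shown. Fh1 had the smallest p of the set, Pdk4 the most negative difference and Pdk3 the most positive one. Each stretch is the 250 bases before the start, 5′ to 3′ on the gene's strand, from RefSeq on GRCm38.p6, and capitals mark CpG. The Fh1 stretch is chr1:175625636-175625885, the Pdk4 stretch chr6:5496279-5496528 and the Pdk3 stretch chrX:93832151-93832400, all on the minus strand.
Fh1: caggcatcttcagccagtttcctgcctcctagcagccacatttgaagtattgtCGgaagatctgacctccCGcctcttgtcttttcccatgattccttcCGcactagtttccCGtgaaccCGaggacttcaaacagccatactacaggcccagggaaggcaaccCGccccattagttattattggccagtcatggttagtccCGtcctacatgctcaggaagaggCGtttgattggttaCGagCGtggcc
Pdk4: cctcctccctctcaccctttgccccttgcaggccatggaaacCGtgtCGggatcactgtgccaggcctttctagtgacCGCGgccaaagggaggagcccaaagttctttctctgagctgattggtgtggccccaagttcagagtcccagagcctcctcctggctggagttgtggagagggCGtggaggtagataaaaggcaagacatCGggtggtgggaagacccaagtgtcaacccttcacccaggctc
Pdk3: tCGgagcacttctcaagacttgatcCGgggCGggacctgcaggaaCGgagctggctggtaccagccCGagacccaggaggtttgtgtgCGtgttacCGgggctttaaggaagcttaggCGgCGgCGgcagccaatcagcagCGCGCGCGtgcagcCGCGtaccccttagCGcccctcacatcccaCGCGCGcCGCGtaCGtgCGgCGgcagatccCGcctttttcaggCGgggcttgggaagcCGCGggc
These stretches held 10, 6 and 29 CpG for Fh1, Pdk4 and Pdk3. RefSeq promoters (300 bases, of which 50 lie after the start) were matched for 30 of the 32 listed genes, all but Idh3a and Pdp1. Taking the richest window of each gene, the 30 held 12 to 39 CpG with a median of 21, against a median of 8 over 27025 genes, and 42.0% of all genes held at least 12. Pdk4 stood lowest of the 30, and only Ogdh and Mpc1 held more than Pdk3. Ogdh and Mpc1 had lower means in Ezh2-deficient hearts (differences -0.034 and -0.20). Expression arrays do not measure Polycomb binding, and a link between CpG and the differences was not tested.

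Motifs were searched in the same windows on both strands. The letters TCAAGGTCA, the element bound by the ERR receptors, which act on mitochondrial genes, were in 0 of the 30 genes and in 0.466% of all genes. A direct repeat bound by PPAR with RXR was likewise in 0 of the 30 and in 0.0481% of all genes. The E box CACGTG was in 4 of the 30 (Ogdh, Pcx, Pdk2 and Pdp2) and in 8.09% of all genes. The letters GCGCATGCG, a core of the NRF1 palindrome, were in 1 of the 30 (Ogdh) and in 1.95% of all genes.

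The targeted gene and the hearts were examined before the members. Ezh2 read 8.73 ± 0.12 (SD, n = 5) in wild-type and 8.88 ± 0.11 (SD, n = 4) in Ezh2-deficient hearts on the log2 scale (difference 0.15, SE 0.07, limma adjusted p = 0.485), so this probe set does not check the labels, and each direction refers to the groups as labelled. By Xist and 3 Y-linked genes, 1 wild-type heart (4) and 2 Ezh2-deficient hearts (1 and 3) came from females. The letter e or x in the sample titles, whose meaning is not given, marks 2 and 3 wild-type hearts and 2 and 2 Ezh2-deficient ones. Cardiomyocyte markers had a lower mean for 7 of 8 genes (median difference -0.083), and their summed level was 111505 to 116157 in wild-type and 101051 to 112973 in Ezh2-deficient hearts (linear array units). All 8 fibroblast markers (median difference 0.47) and all 8 endothelial markers (0.27) had a higher mean. By limma's unadjusted p under 0.05, 5 of 8 fibroblast (62.5%) and 3 of 8 endothelial markers (37.5%) were higher, against 5.77% of all genes. Of the cardiomyocyte markers 1 of 8 was lower (12.5%), against 5.78%. The groups did not overlap, with Ezh2-deficient hearts higher, at 2 of 8 fibroblast and 2 of 8 endothelial markers (2.1% of all genes). They did not overlap, with Ezh2-deficient hearts lower, at 2 of 8 cardiomyocyte markers (2.19% of all genes). Fibroblast sums were 16109 to 20768 in wild-type and 21360 to 26411 in Ezh2-deficient hearts, endothelial sums 8910 to 13171 and 13160 to 14337. Smooth muscle (5 of 5 measured), macrophage (6 of 6), adipocyte (5 of 6), atrial (4 of 4) and skeletal muscle markers (6 of 6) had median differences of 0.10, 0.19, 0.12, 0.06 and 0.04, and no marker of any list passed the adjusted threshold. Atrial sums varied widely from heart to heart, from 518 to 5637 in wild-type and from 1026 to 7981 in Ezh2-deficient hearts. The 3 measured erythrocyte markers summed to 468 to 1104 in wild-type hearts and 800 to 871 in 3 Ezh2-deficient hearts, but to 3541 in Ezh2-deficient heart 3. The markers' part in the results below was not tested. In bulk tissue fewer cells of a type and less RNA per cell cannot be told apart.

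In the citrate cycle proper all 12 genes had a lower mean (median difference -0.15), or 10 of 12 without Ezh2-deficient heart 3. Of the 12, 8 were lower with a limma unadjusted p under 0.05 (66.7%, against 5.78% of all genes). The 5 genes whose groups did not overlap, with every Ezh2-deficient heart lower (2.19% of all genes), belong here. They are Fh1, Suclg1 and the 3 subunits of NAD-dependent isocitrate dehydrogenase. Fh1, encoding fumarase, which hydrates fumarate to malate, read 12.49, 12.51, 12.55, 12.54 and 12.64 in wild-type hearts 1 to 5 and 12.36, 12.43, 12.30 and 12.36 in Ezh2-deficient hearts 1 to 4. Every Ezh2-deficient heart lay below every wild-type heart. The difference was -0.18 (SE 0.05, 95% interval -0.28 to -0.082, limma adjusted p = 0.204), or 88.1% of the wild-type level. It was -0.14 among letter e hearts and -0.21 among letter x hearts.

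NAD-dependent isocitrate dehydrogenase catalyses a rate-controlling step of the cycle and is built from the products of Idh3a, Idh3b and Idh3g. Idh3g read 12.62, 12.67, 12.70, 12.61 and 12.65 in wild-type hearts and 12.51, 12.54, 12.36 and 12.57 in Ezh2-deficient hearts. Idh3a read 12.70, 12.72, 12.72, 12.67 and 12.73 against 12.63, 12.61, 12.39 and 12.62. Idh3b read 13.42, 13.43, 13.48, 13.45 and 13.48 against 13.35, 13.33, 13.34 and 13.39. At each subunit the groups were apart; Ezh2-deficient heart 3 was far below the rest for Idh3a and Idh3g but not for Idh3b. The differences were -0.16 for Idh3g (SE 0.05, limma adjusted p = 0.311), -0.15 for Idh3a (SE 0.055, adjusted p = 0.386) and -0.098 for Idh3b (SE 0.04, adjusted p = 0.376). Without Ezh2-deficient heart 3 they were -0.11, -0.088 and -0.095.

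Idh2, the mitochondrial NADP-dependent isocitrate dehydrogenase that supplies NADPH, read 13.06, 13.20, 13.14, 13.09 and 13.15 in wild-type hearts and 12.97, 12.90, 12.86 and 13.07 in Ezh2-deficient hearts. Ezh2-deficient heart 4 lay just above wild-type heart 1, and the other 3 lay below all wild-type hearts. The difference was -0.18 (SE 0.05, limma adjusted p = 0.28), with -0.11 among letter e hearts and -0.24 among letter x hearts.

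Succinate-CoA ligase makes GTP or ATP directly in the cycle. Its alpha subunit, Suclg1, pairs with the ADP-forming enzyme's beta subunit Sucla2 or with the GDP-forming enzyme's Suclg2. Suclg1 read 11.52, 11.54, 11.60, 11.53 and 11.67 in wild-type hearts and 11.41, 11.43, 11.30 and 11.49 in Ezh2-deficient hearts, without overlap (difference -0.16, SE 0.05, limma adjusted p = 0.309). It differed by -0.0765 among letter e hearts and by -0.24 among letter x hearts. Sucla2 read 12.40, 12.34, 12.47, 12.51 and 12.57 against 12.28, 12.34, 12.28 and 12.23, and only Ezh2-deficient heart 2 reached wild-type heart 2 (difference -0.17, SE 0.05, adjusted p = 0.304). Suclg2 differed by -0.17 (SE 0.07, adjusted p = 0.416), and its further probe set also by -0.17. Among letter e hearts Suclg2 differed by -0.0125, and among letter x hearts by -0.30. The chosen Suclg2 probe set lies, by the numbering of the probe sets, among 20 neighbours that all name genes of another chromosome, so a near-identical copy may contribute to it. The further Suclg2 probe set lies among 20 neighbours that all name genes of Suclg2's own chromosome (limma unadjusted p = 0.0241, adjusted 0.386). The log2 ratio of Suclg2 to Sucla2 within each heart differed by 0.0039 between the groups (exact two-sided permutation p = 0.968).

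The remaining 4 cycle genes were less apart. Cs, citrate synthase, which admits acetyl-CoA to the cycle, read 12.78, 12.87, 12.80, 12.61 and 12.64 in wild-type hearts and 12.70, 12.63, 12.49 and 12.73 in Ezh2-deficient hearts. The groups overlapped, since wild-type hearts 4 and 5 read within the Ezh2-deficient range (difference -0.10, SE 0.07, limma adjusted p = 0.64). Without Ezh2-deficient heart 3 the Cs difference was -0.052, and without wild-type hearts 4 and 5 it was -0.18 (limma unadjusted p = 0.0285, adjusted 0.574). Ogdh, the E1 component of the oxoglutarate dehydrogenase complex, read 13.25, 13.34, 13.29, 13.12 and 13.14 against 13.31, 13.16, 13.00 and 13.30, with 2 Ezh2-deficient hearts above the wild-type mean. Its difference of -0.034 (95% interval -0.20 to 0.13) became 0.03 without Ezh2-deficient heart 3 and -0.10 without wild-type hearts 4 and 5. Dlst, the E2 component of that complex, differed by -0.069 (95% interval -0.19 to 0.052) and Mdh2, the mitochondrial malate dehydrogenase, by -0.058 (95% interval -0.22 to 0.10). Without Ezh2-deficient heart 3 Dlst was at -0.026 and Mdh2 at 0.0014, and without wild-type hearts 4 and 5 they were at -0.11 and -0.13.

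**Figure D2:**
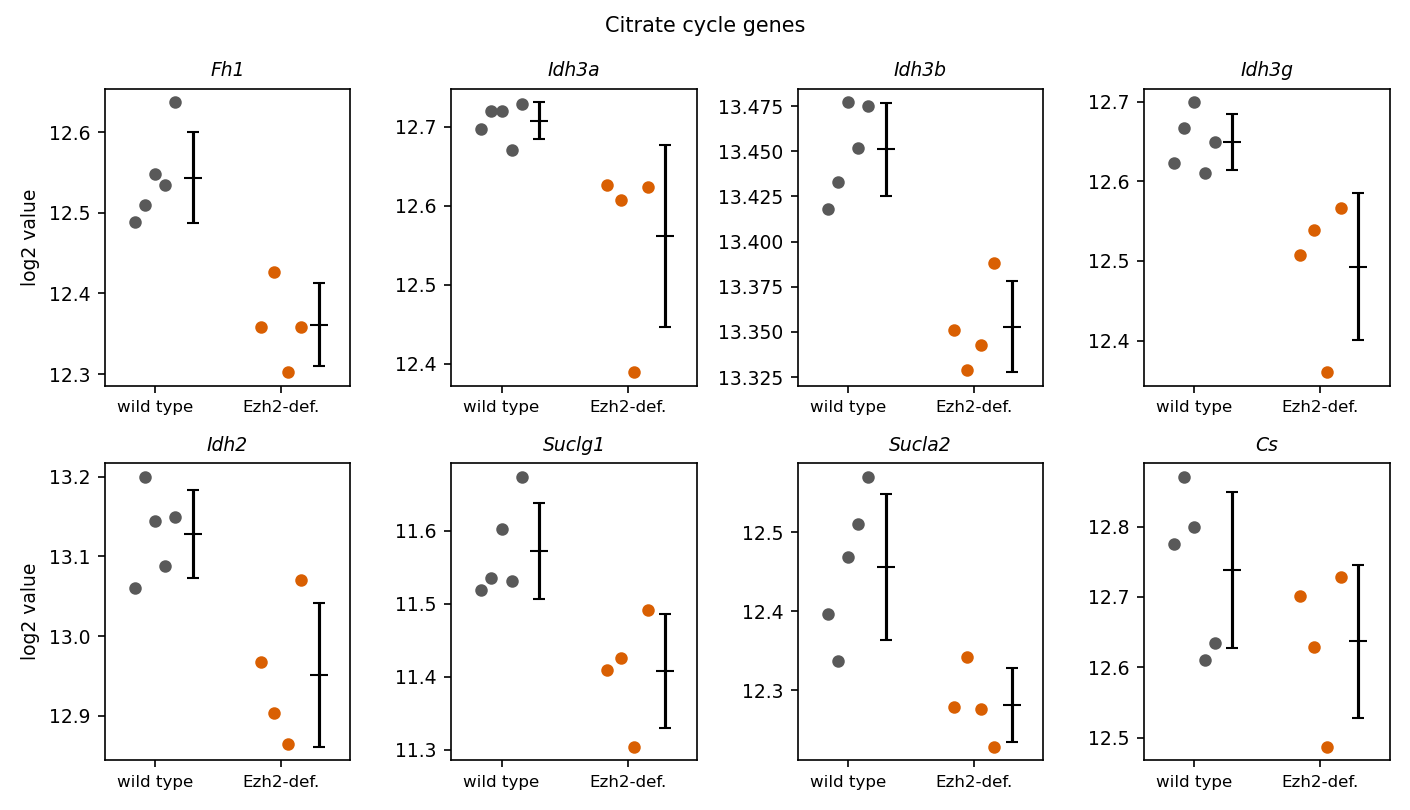
Log2 values of 8 citrate cycle genes, with 1 point per heart for the 5 wild-type (grey) and 4 Ezh2-deficient (orange) hearts, and the mean ± SD of each group in black; each panel has its own log2 axis, which does not start at 0. The groups are apart for Fh1, Idh3a, Idh3b, Idh3g and Suclg1 and overlap for Idh2, Sucla2 and Cs.

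The subunits of the pyruvate dehydrogenase complex all had a lower mean (5 of 5, median difference -0.076). With a limma unadjusted p under 0.05, 1 of them was lower (20.0%, against 5.78% of all genes). That one was Dld, the E3 flavoprotein, which also serves the oxoglutarate and branched-chain complexes. It read 12.11, 12.01, 12.14, 12.30 and 12.39 in wild-type hearts and 11.95, 11.93, 12.02 and 11.99 in Ezh2-deficient hearts; wild-type hearts 4 and 5 were the highest, and Ezh2-deficient heart 3 lay just above wild-type heart 2. The difference was -0.22 (SE 0.07, limma adjusted p = 0.342) and -0.12 without wild-type hearts 4 and 5. Among letter e hearts Dld differed by -0.093, and among letter x hearts by -0.30. Pdha1, the E1 alpha subunit that the kinases phosphorylate, read 13.17, 13.17, 13.25, 13.18 and 13.25 against 13.12, 13.17, 13.06 and 13.13. The values of its Ezh2-deficient hearts lay at or below the lowest wild-type value, with a difference of -0.087 (SE 0.04, 95% interval -0.18 to 0.006, adjusted p = 0.495). Pdhb (E1 beta), Dlat (E2) and Pdhx (which binds E3) differed by -0.076, -0.072 and -0.071, each with a 95% interval that includes 0. Without Ezh2-deficient heart 3 these were -0.052, -0.017 and -0.034, and without wild-type hearts 4 and 5 they were -0.046, -0.13 and -0.052. Within letter e, Pdhb and Pdhx differed by 0.0085 and 0.0465, the other way.

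The kinases and phosphatases did not share 1 direction: 3 of 6 had a lower mean and 3 a higher one. At a limma unadjusted p under 0.05, 2 were lower (33.3%, against 5.78% of all genes) and 1 higher (16.7%, against 5.77%). Pdk4, the kinase that is induced by fasting and by fatty acids through PPAR and so spares glucose, read 12.68, 12.65, 12.13, 12.06 and 12.52 in wild-type hearts and 12.03, 11.71, 11.79 and 12.29 in Ezh2-deficient hearts. Ezh2-deficient hearts 1 to 3 lay below all wild-type hearts and heart 4 within their range. The difference was -0.45 (SE 0.16, 95% interval -0.81 to -0.093, limma adjusted p = 0.364), or 73.0% of the wild-type level. Letter e hearts gave -0.51 and letter x hearts -0.49, and with the letter as a block the limma adjusted p was 0.104. When 1 heart was left out the Pdk4 difference was -0.56 to -0.37 (limma unadjusted p 0.007 to 0.0613, against 0.0188 with all hearts). With array weights it was -0.33 (limma unadjusted p = 0.0641). With the mean of Y-linked genes as a covariate it was -0.39 (limma unadjusted p = 0.0449, adjusted 0.544). The SD of Pdk4 was 0.29 over wild-type and 0.26 over Ezh2-deficient hearts.

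Pdk3, an X-linked kinase of the same family, went the other way. It read 7.18, 6.85, 6.72, 7.20 and 6.89 in wild-type hearts and 7.43, 7.34, 7.27 and 7.40 in Ezh2-deficient hearts, and every Ezh2-deficient heart lay above every wild-type heart. The difference was 0.39 (SE 0.10, 95% interval 0.17 to 0.61, limma adjusted p = 0.215), or 131% of the wild-type level, and 0.36 with the mean of Y-linked genes as a covariate. That the male Ezh2-deficient hearts 2 and 4 read above all male wild-type hearts follows from this separation and adds nothing to it. Whether sex has a part in the Pdk3 difference was not tested. The wild-type mean of 6.97 lay below the array medians, which were 7.19 to 7.25, and RMA compresses differences of such dim probe sets. Pdk1, a kinase induced by hypoxia, differed by 0.12 (SE 0.07, adjusted p = 0.584), with wild-type heart 1 the lowest at 9.94. Without that heart the Pdk1 difference was 0.065, and without wild-type hearts 4 and 5 it was 0.21 (limma unadjusted p = 0.0149, adjusted 0.519).

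Pdk2, the most widely expressed kinase of the family, read 11.73, 11.91, 11.77, 11.69 and 11.73 in wild-type hearts and 11.62, 11.62, 11.62 and 11.74 in Ezh2-deficient hearts. Ezh2-deficient hearts 1 to 3 lay below all wild-type hearts, and heart 4 lay among them (difference -0.12, SE 0.05, limma adjusted p = 0.477). To ask whether Pdk4 differed more than its relatives, the log2 ratio of 2 members within each heart was compared between the groups by exact two-sided permutation over 126 assignments. The ratio of Pdk4 to Pdk1 was 2.24 ± 0.37 (SD, n = 5) in wild-type and 1.66 ± 0.28 (SD, n = 4) in Ezh2-deficient hearts (difference -0.58, exact p = 0.0476, 0.286 after adjustment over 6 ratios). That of Pdk4 to Pdk2 differed by -0.34 (exact p = 0.0952, adjusted 0.286). None of the 6 ratios passed after adjustment; the smallest p that this design allows is 0.00794.

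Of the phosphatases, Pdp2 read 8.43, 8.54, 8.59, 8.52 and 8.64 in wild-type hearts and 8.09, 8.18, 8.44 and 8.34 in Ezh2-deficient hearts. Ezh2-deficient hearts 1, 2 and 4 lay below all wild-type hearts, and heart 3 just above the lowest of them. The difference was -0.28 (SE 0.07, 95% interval -0.44 to -0.11, limma adjusted p = 0.233), with -0.27 within either letter. Pdp1, the calcium-stimulated phosphatase, differed by 0.072 (95% interval -0.099 to 0.24), and its groups overlapped. It was 0.03 without Ezh2-deficient heart 3, 0.033 without wild-type heart 1, 0.042 without wild-type heart 2, 0.11 without wild-type heart 5 and 0.15 without wild-type hearts 4 and 5.

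**Figure D3:**
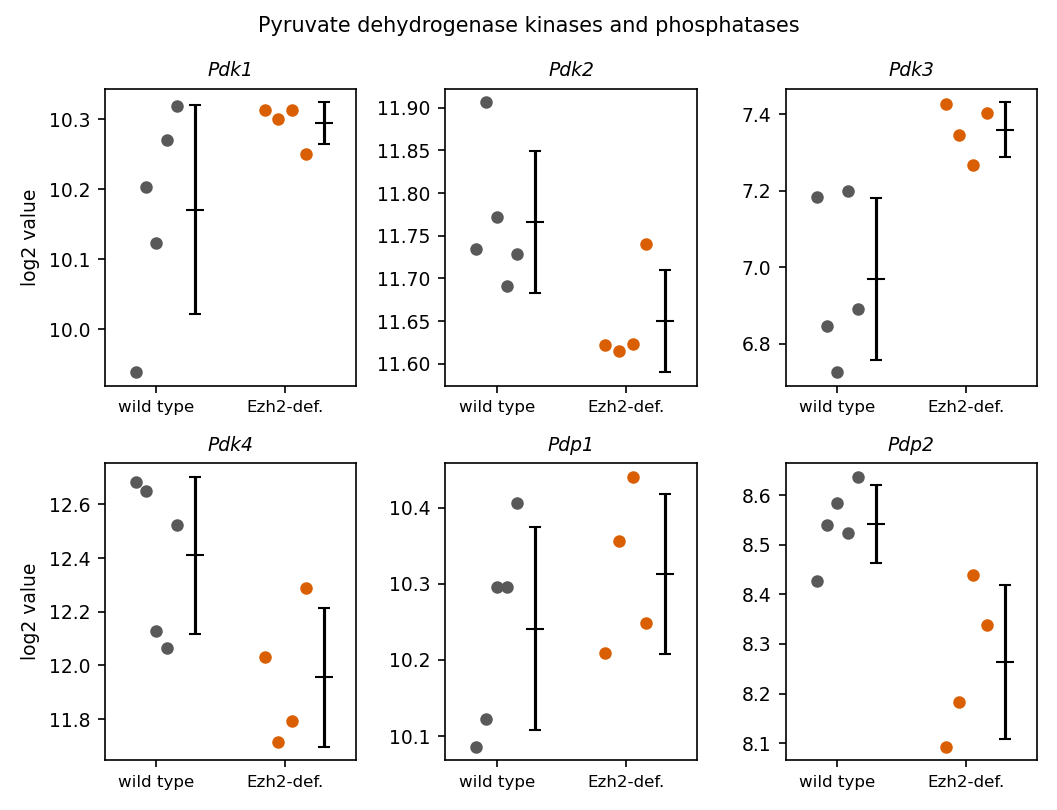
Log2 values of the 4 pyruvate dehydrogenase kinases and 2 phosphatases, with 1 point per heart for the 5 wild-type (grey) and 4 Ezh2-deficient (orange) hearts and the mean ± SD of each group in black; each panel has its own log2 axis, which does not start at 0. Only Pdk3 shows groups that are fully apart, with Ezh2-deficient hearts higher, while 3 of 4 Ezh2-deficient hearts lie below all wild-type hearts for Pdk2, Pdk4 and Pdp2.

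Pyruvate entry was represented by Mpc1 alone. It read 11.49, 11.42, 11.66, 12.04 and 11.98 in wild-type hearts and 11.36, 11.58, 11.57 and 11.57 in Ezh2-deficient hearts. Wild-type hearts 4 and 5 were high and the other 3 lay around the Ezh2-deficient values, so the difference was -0.20 with all hearts (SE 0.13, limma adjusted p = 0.624) and -0.0032 without these 2. Like that of Suclg2, the Mpc1 probe set has 20 of 20 neighbours in the numbering that name genes of another chromosome, and a copy may contribute. These were the only 2 of the 31 so placed.

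Me3 and Pcx, the members that add carbon to the cycle or draw on it through malate and pyruvate, also had lower means. Me3, the mitochondrial NADP-dependent malic enzyme, read 9.98, 10.06, 9.97, 9.95 and 10.07 in wild-type hearts and 9.86, 9.80, 9.64 and 9.95 in Ezh2-deficient hearts. Only Ezh2-deficient heart 4 reached the wild-type range (difference -0.20, SE 0.06, limma adjusted p = 0.319). Me3 differed by -0.1175 among letter e hearts and by -0.28 among letter x hearts. Pcx, pyruvate carboxylase, which makes oxaloacetate from pyruvate, read 7.99, 8.09, 8.09, 7.99 and 8.02 against 7.79, 8.10, 7.79 and 7.99. Ezh2-deficient hearts 1 and 3 lay below all wild-type hearts, heart 4 near their lowest and heart 2 at their highest value (difference -0.12, SE 0.07, adjusted p = 0.574). Hearts 1 and 3 are the female ones of that group, while wild-type heart 4, the female one of its group, read 7.99. With the mean of Y-linked genes as a covariate the Pcx difference was -0.0685. Whether sex has a part in it was not tested. Without Ezh2-deficient heart 1, 2 or 3 the Pcx difference was -0.077, -0.18 or -0.078.

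The malate-aspartate shuttle carries the reducing power of cytosolic NADH into mitochondria. Its 3 genes here had lower means, and 1 had a limma unadjusted p under 0.05 (33.3%, against 5.78% of all genes). That gene was Mdh1, the cytosolic malate dehydrogenase, which read 13.68, 13.63, 13.67, 13.73 and 13.83 in wild-type hearts and 13.58, 13.59, 13.64 and 13.58 in Ezh2-deficient hearts, with only heart 3 of the latter inside the wild-type range (difference -0.11, SE 0.05, limma adjusted p = 0.444). Without wild-type hearts 4 and 5 the Mdh1 difference was -0.064. Got1, the cytosolic aspartate aminotransferase, differed by -0.21 (SE 0.11, adjusted p = 0.537), much of it through Ezh2-deficient heart 3, which read 12.59 against 13.03 to 13.15 in the other 3 of its group; without it the difference was -0.078. Got2, the mitochondrial form, differed by -0.10 (SE 0.08), and its further probe set, whose neighbours in the numbering also name genes of another chromosome, by -0.11. Without Ezh2-deficient heart 3 the Got2 difference was -0.044, and without wild-type hearts 4 and 5 it was -0.19 (limma unadjusted p = 0.0309, adjusted 0.578). The cytosolic aconitase Aco1, which doubles as an iron regulatory protein, had nearly equal means (9.68 and 9.67, difference -0.0067, 95% interval -0.15 to 0.14). It was 0.029 without Ezh2-deficient heart 3 and -0.079 without wild-type hearts 4 and 5. Idh1, the cytosolic NADP-dependent isocitrate dehydrogenase, had a difference of -0.22 (SE 0.14, limma adjusted p = 0.605). It was -0.044 without wild-type hearts 4 and 5, which read 10.85 and 10.88 against 10.30 to 10.63 in the other 3. Whether cytosolic and mitochondrial enzymes differ was tested for 3 pairs (Idh1 to Idh2, Got1 to Got2, Mdh1 to Mdh2), whose ratios gave exact adjusted p of 0.968, 0.603 and 0.952.

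**Figure D4:**
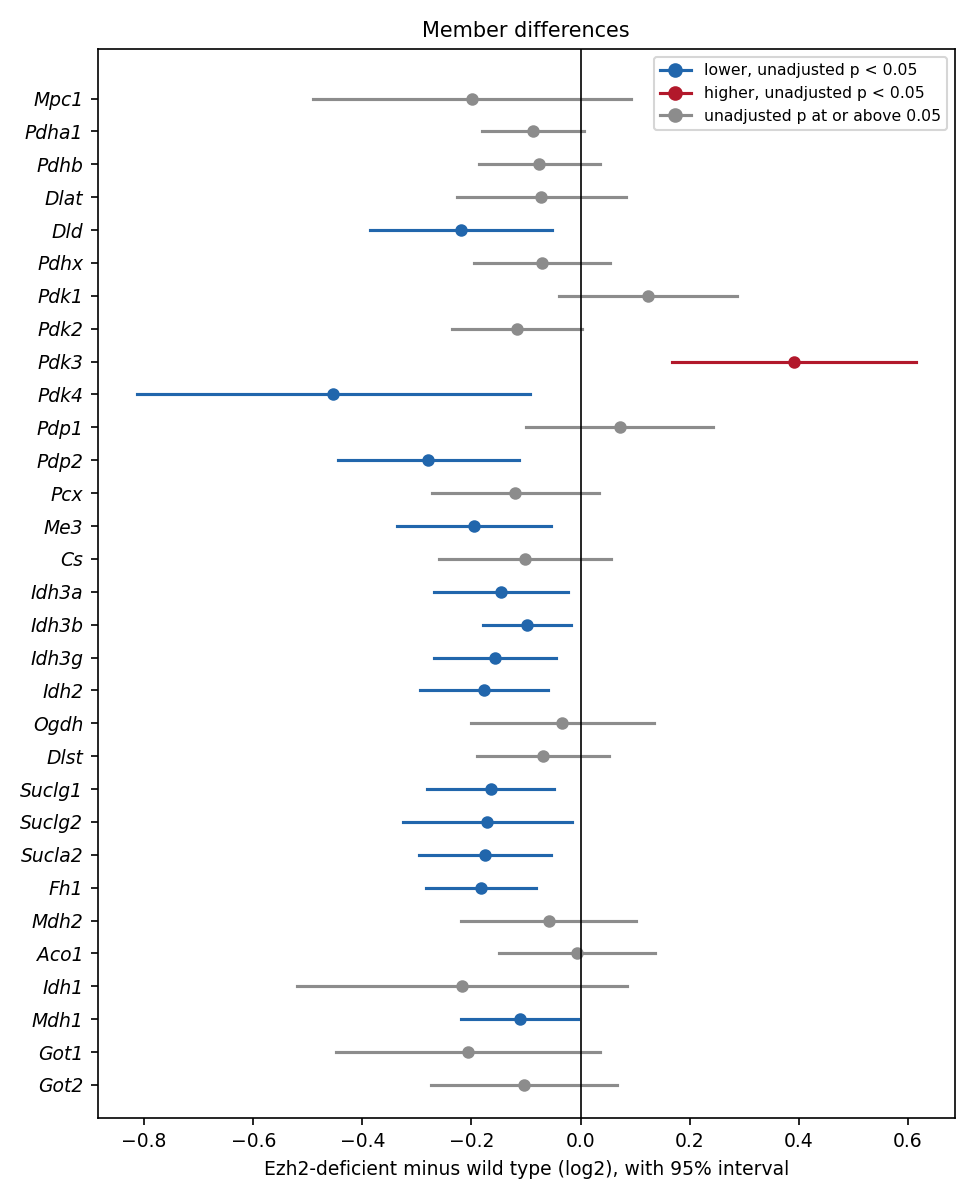
The difference of each of the 31 genes, taken on the log2 scale as Ezh2-deficient minus wild-type mean, is shown as a point with its 95% interval from limma (4 against 5 hearts), blue or red where the unadjusted p is under 0.05. The points of 28 genes lie left of 0 and those of Pdk1, Pdk3 and Pdp1 to the right, and none passes after adjustment over all probe sets.

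The hearts did not contribute equally. The mean over the 31 genes, each relative to its wild-type mean, was -0.033, -0.0036, 0.0075, -0.018 and 0.047 in wild-type hearts 1 to 5 and -0.11, -0.10, -0.19 and -0.049 in Ezh2-deficient hearts 1 to 4. Ezh2-deficient heart 3, the one with high erythrocyte markers, was the lowest of all 9 arrays at 17 of the 31 genes. Its mean over the 8 cardiomyocyte markers was -0.24 relative to wild type, against -0.084 to -0.011 in the other 3. The markers furthest below wild type in heart 3 were Ttn (12.52, wild-type mean 13.22) and Ryr2 (12.38, wild-type mean 12.85), and the rest were less far below or level. Without this heart 25 of 31 genes had a lower mean, the median difference was -0.088 and 11 genes were lower at an unadjusted p under 0.05. Within letter e 24 of 31 had a lower mean with a median of -0.0795, and 2 were lower at an unadjusted p under 0.05; for the letter x hearts alone these were 27, -0.14 and 11. When each heart was left out in turn, 9 of the 13 lower genes (Fh1, Pdp2, Idh2, Sucla2, Suclg1, Idh3g, Me3, Dld and Idh3a) and Pdk3 kept an unadjusted p under 0.05 in all 9 fits, and 0 members passed after adjustment in any. The shares of all genes given above come from all 9 hearts, so the counts in these smaller fits have no matching background here.

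Other genes of the pathway were taken from a separate list of 36, of which 32 were measured. Of these 22 had a lower mean (68.8%, against 51.6% of all genes) and 10 a higher one, with a median difference of -0.10; 0 passed limma's adjusted threshold in either direction, and 12 were lower (37.5%, against 5.78% of all genes) and 2 higher (6.25%, against 5.77%) at an unadjusted p under 0.05. The 4 with the smallest p were Gpt, Sdhd, Nnt and Me2. Gpt, an alanine aminotransferase that converts alanine to pyruvate, differed by -0.47 (SE 0.10, adjusted p = 0.129), with every Ezh2-deficient heart (7.65 to 8.09) below every wild-type heart (8.19 to 8.52). Sdhd, a membrane subunit of succinate dehydrogenase, and Nnt, the mitochondrial transhydrogenase that makes NADPH, differed by -0.24 (SE 0.05) and -0.21 (SE 0.05). Me2, the NAD-dependent mitochondrial malic enzyme, differed by 0.32 (SE 0.08, adjusted p = 0.225), opposite in sign to Me3.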

How the data were processed

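RNA from the hearts of 9 mice (5 wild type, 4 Ezh2-deficient) was hybridised to 1 array each. The deposited table gives log2 expression values per probe set, made by the authors with RMA in Affymetrix Power Tools, per the submitters' processing notes; no version was recorded there, and the log2 scale was read from the range of 2.18 to 15.0 and the method. RMA draws arrays to 1 distribution and compresses dim signals. The table holds 0 further columns of per-sample values and no detection calls. Hearts carry numbers by accession order, which pair nothing. Per the labels' protocols the tissue came from 5 and 4 mice, so each array was taken as 1 animal.

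Of 28815 probe sets 21780 had 1 gene symbol, 1605 several and 5430 none in the platform annotation; 21689 matched RefSeq (GRCm38.p6) by gene identifier. The test was limma 3.58.1 (lmFit, eBayes; R 4.3.3) over all probe sets with a single term for genotype, two-sided, Benjamini-Hochberg adjusted, threshold 0.05. Differences are Ezh2-deficient minus wild type, and a percent of the wild-type level is 2 to that power times 100. The number of arrays limits the precision, and the median standard error was 0.0674. Ratios within a heart were tested by exact permutation (scipy 1.17.1). The fit was tested on simulated data. Values on every array were given for the 10 genes with the smallest p and for Pdk4, Pdk2, Cs, Pdha1, Mpc1, Idh2, Ogdh and Pcx; of the further pathway genes the 4 with the smallest p were named. Values of Idh3a, Idh3b and Mdh1, and some of Got1, Idh1 and Pdk1, were added after they were seen. Marker sums are of linear values. Alternatives were a further quantile normalization, median centring, a filter on dim probe sets, array weights, an intensity trend with robust fitting, title letter or letter and prime as a block, Y-linked genes as a covariate, leaving out hearts, and averaging a gene's probe sets. Members, lists and alternatives were chosen with earlier results of these data known; wild-type hearts 4 and 5 were left out together because those results showed them apart.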

Additional observations from a re-analysis of the deposited data

Results flagged for a closer look

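Dixon's ratio marked 3 of the 62 groups of values (31 genes in 2 groups) as holding 1 heart far from the others; chance marks about 1 in 20 groups, or 3.1 here. For Mpc1, Ezh2-deficient heart 1 read 11.362, below the other 3 at 11.571 to 11.576. For Pdk2, Ezh2-deficient heart 4 read 11.74, above the other 3 at 11.615 to 11.623. For Idh3a, Ezh2-deficient heart 3 read 12.389, below the other 3 at 12.608 to 12.627.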

How the results depend on the processing

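No paired analysis was possible because the replicate numbers were given in sample order and pair nothing. Over 21 alternatives 0 of the 650 member values passed the adjusted threshold (lowest limma adjusted p = 0.0832), 638 kept their direction and 12 reversed. The count of members with a lower mean stayed between 24 and 28. Members lower at an unadjusted p numbered 10 to 16 except within letter e, where 4 hearts gave 2. Within letter e the median difference was -0.0795. The share of all genes at an unadjusted p was given for the main fit only. Calls over all probe sets numbered 10, and 17 with arrays centred on their medians, 17 with dim probe sets left out, 37 with array weights, 17 with the title letter and 27 with letter and prime as a block, 3 with the Y-linked covariate, 5 without wild-type hearts 4 and 5, 0 within letter e, 0 within letter x, and 3 to 15 when 1 heart was left out; the cause was not tested. The reversed values were Aco1 at 0.033 with the Y-linked covariate, 0.00917 within letter x and -0.045 to 0.0288 when 1 heart was left out; Ogdh at 0.0055 within letter e and -0.072 to 0.0297, and Mdh2 at -0.093 to 0.0014, when 1 heart was left out; and Mpc1 at 0.010, Pdhb at 0.0085 and Pdhx at 0.0465 within letter e. Of the ratios, Idh1 to Idh2 was at 0.031 within letter e, 0.139 without wild-type hearts 4 and 5 and -0.128 to 0.0369; Suclg2 to Sucla2 at -0.0923 within letter x, -0.0318 without wild-type hearts 4 and 5 and -0.0469 to 0.0521; Mdh1 to Mdh2 at 0.0035 within letter e, 0.0691 without wild-type hearts 4 and 5 and -0.127 to 0.0005 when 1 heart was left out; and Got1 to Got2 at 0.021 within letter e. The number of arrays limits the precision, and the median standard error of a member was 0.0688.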
